A study of Mus musculus with 6 samples.

Results

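De novo nucleotide synthesis was followed through 10 genes, Ppat, Gart, Paics, Adsl, Atic and Impdh2 of the purine branch and Cad, Dhodh, Umps and Ctps of the pyrimidine branch. They were chosen by pathway, with earlier results of these data known, and matched by gene symbol in the deposited count table. That table held all 10 among its 11922 genes. All 10 were among the 11759 genes that passed the low-count filter and were tested. Splenic CD8+ T cells of C57BL6/J mice were isolated on magnetic columns, activated with anti-CD3/anti-CD28 Dynabeads and recombinant human IL-2 at 100 units/ml, and then expanded with IL-2 alone until day 7. Throughout, the medium held either water (vehicle) or 0.25 mM aminooxyacetic acid (AOA), which blocks enzymes that need pyridoxal 5'-phosphate, the active form of vitamin B6, transaminases among them. Each of 3 donor mice gave a culture to both groups, so that vehicle replicates 1, 2 and 3 and AOA replicates 1, 2 and 3 carry the number of their mouse. All 6 cultures shared the same strain, activation and IL-2, and both groups were sampled on day 7 only.

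Purine synthesis builds a ring stepwise on phosphoribosyl pyrophosphate (PRPP) until inosine monophosphate (IMP) is made, from which the adenine and guanine nucleotides branch. Pyrimidine synthesis makes the ring first, as orotate, then adds PRPP to give uridine monophosphate, and cytidine nucleotides follow from uridine nucleotides. The nitrogen comes from glutamine, aspartate and glycine, and formyl groups come from folate. Activated T cells enlarge and divide, and are known to raise both branches.

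Each library held between 12881962 and 21997078 counts. Levels are in CPM, the counts of a gene scaled to the TMM-normalised library size. Log2 fold changes set AOA over vehicle and come from the quasi-likelihood test of edgeR, with a gene called where the Benjamini-Hochberg adjusted p was under 0.05. Vehicle replicate 2 and AOA replicate 1 stood apart from the other libraries of their group. In a chi-square comparison of counts over genes, they differed from their group by 55.1 to 71.1 per gene, against 10.02 and 10.5 for the remaining pair of each group. In RNA of whole cultures, fewer cells of a type and less RNA per cell cannot be told apart. The p-values measure the spread between cultures of 3 mice per group.

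All 10 genes were higher with AOA. The count of 10 called higher of 10 tested compared with 26.2% called higher among all genes tested, and 0 of the 10 were called lower, compared with 26.8% of all genes. Their log2 fold changes ran from 0.93 for Paics to 1.96 for Ctps, with a median of 1.66, where the median of all genes tested was -0.02. The largest adjusted p of the 10, that of Cad, was 0.00158 by edgeR. For each of the 10 genes the 3 AOA libraries all lay above the 3 vehicle libraries, which held for 31.0% of all genes tested. When a log2 fold change of at least 1 was also required, 9 of the 10 were called, all but Paics, compared with 12.1% of all genes.

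The 10 transcripts together took 582, 807 and 632 CPM in vehicle replicates 1, 2 and 3 and 1766, 1877 and 1819 CPM in AOA replicates 1, 2 and 3. Their summed level was thus 674 ± 118 CPM (SD, n = 3) in the vehicle libraries, whereas it reached 1821 ± 55.8 CPM (SD, n = 3) in the AOA libraries. The median difference of the 10 genes within a mouse was 1.80, 1.27 and 1.85 on the log2 scale in mice 1, 2 and 3. The smallest of these belonged to mouse 2, whose vehicle culture had the highest summed level of its group.

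**Figure D1:**
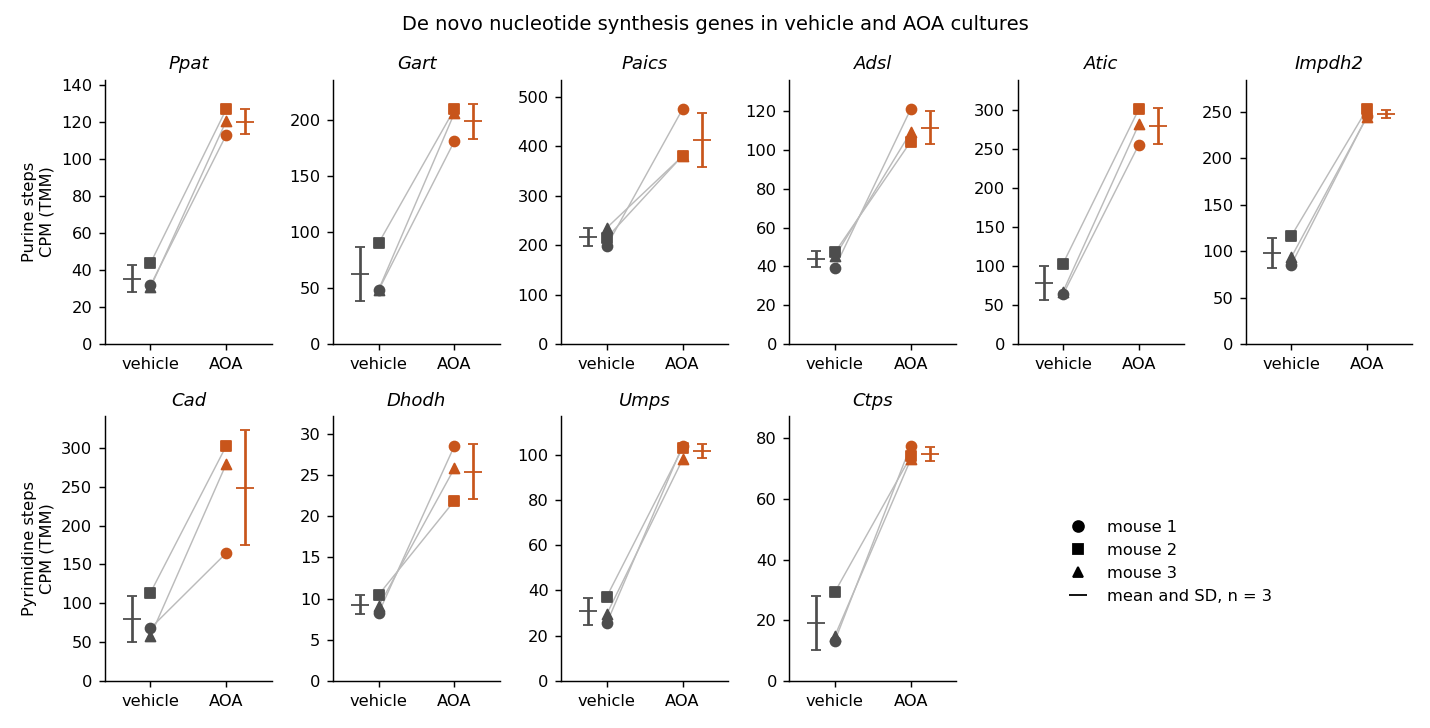
Level of each of the 10 genes in CPM in the vehicle and AOA cultures, with a line joining the cultures of a mouse and bars for the mean and SD (n = 3). In every panel the 3 AOA points lie above the 3 vehicle points, and vehicle replicate 2 is the highest vehicle point in all panels but that of Paics.

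The purine branch starts with Ppat, the amidotransferase that commits PRPP to purine synthesis by adding a nitrogen from glutamine. Ppat was at 31.8, 43.8 and 30.7 CPM in the vehicle replicates and at 113, 127 and 121 CPM in the AOA replicates. The groups were far from overlapping, and the gene rose with a log2 fold change of 1.76 (SE 0.16, adjusted p = 5.25e-05 by edgeR).

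Gart encodes a protein with 3 activities of the early ring, among them a transfer of a formyl group from folate. It was at 48.2, 90.1 and 48.6 CPM with vehicle and at 181, 210 and 206 CPM with AOA. Vehicle replicate 2 was well above its group, yet stayed below every AOA library. Gart rose with a log2 fold change of 1.67 (SE 0.24, adjusted p = 4.95e-04 by edgeR).

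Paics joins a carboxylase with the ligase that adds aspartate to the growing ring. Its levels were 199, 215 and 235 CPM with vehicle and 476, 381 and 381 CPM with AOA. Here the vehicle libraries lay close together and AOA replicate 1 was the high library of its group. Paics had the smallest change of the 10, 1.91-fold between the group means, with a log2 fold change of 0.93 (SE 0.15, adjusted p = 9.63e-04 by edgeR). It was already the most abundant of the 10 transcripts with vehicle.

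Adsl, adenylosuccinate lyase, follows Paics and splits off the carbon skeleton of that aspartate as fumarate, and acts again where AMP is made from IMP. It was at 39.4, 47.2 and 45.1 CPM with vehicle and at 121, 104 and 109 CPM with AOA. Both groups were tight, and Adsl rose with a log2 fold change of 1.34 (SE 0.13, adjusted p = 7.44e-05 by edgeR).

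Atic brings in the last formyl group and closes the ring to give IMP. Its levels were 63.6, 103 and 67.3 CPM in vehicle replicates 1, 2 and 3 and 255, 301 and 281 CPM in the AOA replicates. Atic had the largest change of the purine members, with a log2 fold change of 1.84 (SE 0.20, adjusted p = 1.17e-04 by edgeR).

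Impdh2 is an IMP dehydrogenase and opens the way from IMP to the guanine nucleotides. It was at 85.3, 116 and 93.4 CPM with vehicle and at 245, 253 and 245 CPM with AOA. The AOA libraries were nearly equal, at 248 ± 4.69 CPM (SD, n = 3). The log2 fold change was 1.33 (SE 0.15, adjusted p = 1.36e-04 by edgeR).

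Ppat and Paics lie head to head on chromosome 5. In the RefSeq annotation of GRCm38.p6, Ppat occupies chr5:76913249-76951578 on the minus strand and Paics chr5:76951302-76967509 on the plus strand, so that 277 bases belong to both. The libraries were stranded, but no source used here gives the strand setting of the counting, and reads from the shared bases cannot be assigned with certainty. The genes changed unequally. The ratio of Paics to Ppat per base of transcript was 10.6, 8.28 and 12.9 in the vehicle replicates and 7.09, 5.06 and 5.32 in the AOA replicates. The ranges did not overlap, the difference on the log2 scale was -0.86, and the exact permutation test (two-sided) gave p = 0.1, the smallest that 3 against 3 libraries allow.

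Promoter windows of RefSeq GRCm38.p6, from 250 bases before to 50 bases after the start, were given for 9 of the 10 genes, all but Dhodh. The canonical E-box, CACGTG, to which MYC with MAX and other basic helix-loop-helix proteins are known to bind, was searched in them. It reads the same on both strands. It was present in 3 of the 9 windows, compared with 11.9% of 9438 tested genes with a window and 7.15% of all 32851 windows, and in 0 of 7 windows of the other enzymes of the pathway. All 3 genes with a match belong to the purine branch. Dhodh was not searched, and neither were bases outside the window of any gene, so a site there would be missed. The matches are shown on the plus strand because they mark where this sequence sits next to genes of the set that rose. The capitals mark the E-box. For Paics it begins 203 bases before the start (chr5:76951087-76951116), for Atic 7 bases before (chr1:71557137-71557166) and for Impdh2 110 bases before (chr9:108560314-108560343).
Paics: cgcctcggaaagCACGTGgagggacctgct
Atic: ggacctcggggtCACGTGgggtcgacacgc
Impdh2: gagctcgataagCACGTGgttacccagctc
The log2 fold changes of Paics, Atic and Impdh2 were 0.93, 1.84 and 1.33, the first being the smallest of the whole set. Binding was not measured here, and a match describes the letters only.

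The pyrimidine branch opens with Cad, a protein with 3 enzyme activities that takes nitrogen from glutamine, joins the product to aspartate and closes the ring. Cad was at 67.9, 114 and 57.9 CPM in the vehicle replicates and at 165, 303 and 280 CPM in the AOA replicates. Vehicle replicate 2 was the high library of its group and AOA replicate 1 the low library of its own, and the groups did not overlap. Cad rose with a log2 fold change of 1.64 (SE 0.30, adjusted p = 0.00158 by edgeR), and its standard error was the largest of the set. It was 2.02 without vehicle replicate 2 and 1.87 without AOA replicate 1.

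Dhodh, the mitochondrial enzyme that oxidises dihydroorotate to orotate, was the least abundant of the set. It was at 8.25, 10.5 and 9.06 CPM with vehicle and at 28.6, 21.9 and 25.8 CPM with AOA. The lowest AOA library was above the highest vehicle library by more than the whole vehicle range, and Dhodh rose with a log2 fold change of 1.46 (SE 0.18, adjusted p = 2.07e-04 by edgeR).

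Umps adds PRPP to orotate and removes carbon dioxide to give uridine monophosphate. Its levels were 25.6, 37.3 and 29.5 CPM with vehicle and 104, 103 and 97.95 CPM with AOA. The AOA libraries again lay within a narrow range, and Umps rose with a log2 fold change of 1.72 (SE 0.16, adjusted p = 5.03e-05 by edgeR).

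Ctps, one of the CTP synthetases, aminates UTP with glutamine and ends the branch. Ctps was at 13.2, 29.4 and 14.9 CPM with vehicle and at 77.5, 74.0 and 73.0 CPM with AOA. It had the largest change of the set, 3.91-fold between the group means, with a log2 fold change of 1.96 (SE 0.27, adjusted p = 4.12e-04 by edgeR), and 414 of all genes tested had a larger one. Vehicle replicate 2 was highest here too, and without it the log2 fold change was 2.44.

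**Figure D2:**
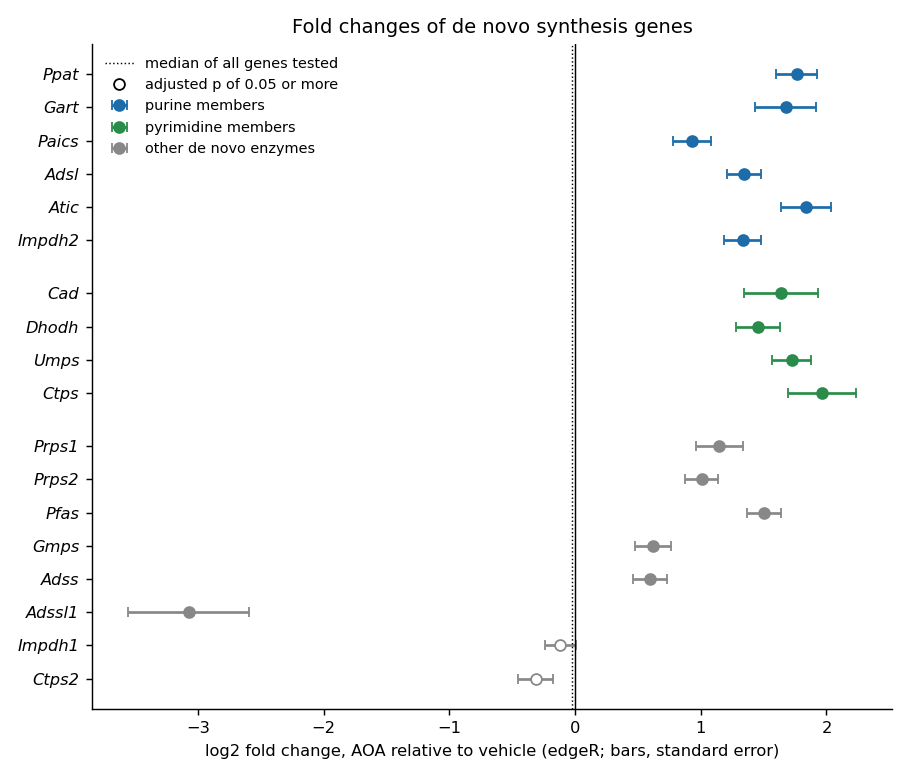
Log2 fold change (AOA relative to vehicle) of the 10 genes and of 8 other enzymes of the pathway, with the standard error as bars; filled points were called and open points were not. All 10 members lie to the right of 0, between 0.93 and 1.96, while the other enzymes spread from -3.07 for Adssl1 to 1.50 for Pfas.

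Per length of transcript, which allows genes to be compared, the order of the 10 was nearly the same in both groups. With vehicle Paics came first at 91.1 CPM per kb, then Impdh2 at 60.5, Atic at 29.9 and Gart at 18.7 CPM per kb. Adsl, Cad, Ppat, Umps and Ctps followed between 11.8 and 7.08 CPM per kb, each overlapping the next, and Dhodh was lowest at 4.00 CPM per kb without overlap. Atic and Gart also overlapped each other.

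With AOA the first 4 kept this order, at 173, 152, 107 and 59.8 CPM per kb, each above the next in all libraries. Cad, Ppat, Adsl, Umps and Ctps lay between 34.9 and 27.7 CPM per kb, each overlapping the next, and Dhodh was again last at 10.97 CPM per kb. Paics exceeded the second gene, Impdh2, by less with AOA than with vehicle, since Impdh2 had the larger fold change.

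Aspartate enters the pathway through Cad and Paics, and Adsl handles the product that carries it. These 3 genes rose by 1.64, 0.93 and 1.34 on the log2 scale, and the other 7 by 1.33 to 1.96. Of the enzymes that use glutamine, the members Ppat, Cad and Ctps had log2 fold changes of 1.76, 1.64 and 1.96. Those that use formyl folate, Gart and Atic, had 1.67 and 1.84. Ppat and Umps, which consume PRPP, had 1.76 and 1.72. No test of a difference between these subsets was run.

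The remaining enzymes of the pathway, 8 genes listed for comparison, did not move together. Of them 5 were called higher, 1 was called lower and 2 were not called, with a median log2 fold change of 0.61, where 26.2% of all genes were called higher and 26.8% lower. The steps that the 10 genes leave out of the shared trunk were among those that rose. Pfas, the glutamine-using step that falls between activities of Gart, was at 24.4, 24.9 and 26.3 CPM with vehicle and at 63.9, 76.5 and 73.9 CPM with AOA, a log2 fold change of 1.50 (SE 0.13, adjusted p = 4.13e-05 by edgeR). Prps1 and Prps2, the synthetases that make PRPP, rose by 1.15 and 1.01 on the log2 scale (adjusted p = 9.04e-04 and 3.12e-04 by edgeR).

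Of the enzymes after IMP, Gmps, which makes GMP with glutamine, had a log2 fold change of 0.62 (adjusted p = 0.00508 by edgeR). Its mean was 88.7 ± 7.74 CPM (SD, n = 3) in the vehicle libraries, compared with 136 ± 16.1 CPM (SD, n = 3) in the AOA libraries. Adss, which joins aspartate to IMP on the way to AMP, had a log2 fold change of 0.59 (adjusted p = 0.00536 by edgeR). Both were thus higher in all 3 AOA libraries than in any vehicle library, by less than any of the 10 members.

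Its relative Adssl1, known as the form of muscle, went the other way. Adssl1 was at 22.2, 5.71 and 22.9 CPM in vehicle replicates 1, 2 and 3 and at 1.84, 2.27 and 1.92 CPM in the AOA replicates. Vehicle replicate 2 was much nearer to the AOA libraries than its group was, but above them. Adssl1 fell with a log2 fold change of -3.07 (SE 0.48, adjusted p = 7.71e-04 by edgeR), or -3.45 without vehicle replicate 2.

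Impdh1, the other IMP dehydrogenase, was at 174, 152 and 158 CPM with vehicle and at 148, 146 and 152 CPM with AOA. The groups overlapped, and the log2 fold change of -0.12 (SE 0.12, adjusted p = 0.438 by edgeR) was not called. Ctps2, the second CTP synthetase, was at 129, 117 and 141 CPM with vehicle and at 117, 97.9 and 95.9 CPM with AOA. The log2 fold change of Ctps2 was -0.31 (SE 0.14, adjusted p = 0.0815 by edgeR), and it was called without AOA replicate 1, at -0.41 (adjusted p = 0.0257 by edgeR).

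For 4 reactions that 2 genes each serve, the balance of their transcripts was compared per length. Impdh2 stood to Impdh1 at a ratio of 0.824, 1.29 and 0.992 in the vehicle replicates and of 2.79, 2.92 and 2.71 in the AOA replicates. Ctps stood to Ctps2 at 0.222, 0.542 and 0.228 with vehicle and at 1.43, 1.63 and 1.64 with AOA. Per length, Ctps2 was thus the more abundant transcript in every vehicle library and Ctps in every AOA library. This switch depends on the lengths of the count table. In CPM, before division by length, Ctps2 was above Ctps in every library of both groups. Adss exceeded Adssl1 by a ratio of 3.96, 17.8 and 4.07 with vehicle and of 84.6, 63.1 and 66.7 with AOA.

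The ranges did not overlap for any of these 3 pairs. The differences in log2 ratio were 1.46 for Impdh2 over Impdh1, 2.38 for Ctps over Ctps2 and 3.43 for Adss over Adssl1. Each had p = 0.1 in the exact permutation test (two-sided), the smallest this test can give with 3 against 3 libraries. Ranges that do not overlap always give this value, so it adds nothing to them. Prps1 over Prps2 overlapped between groups, at 0.981, 0.957 and 0.965 with vehicle and 1.39, 0.971 and 0.850 with AOA (exact permutation p = 0.8).

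**Figure D3:**
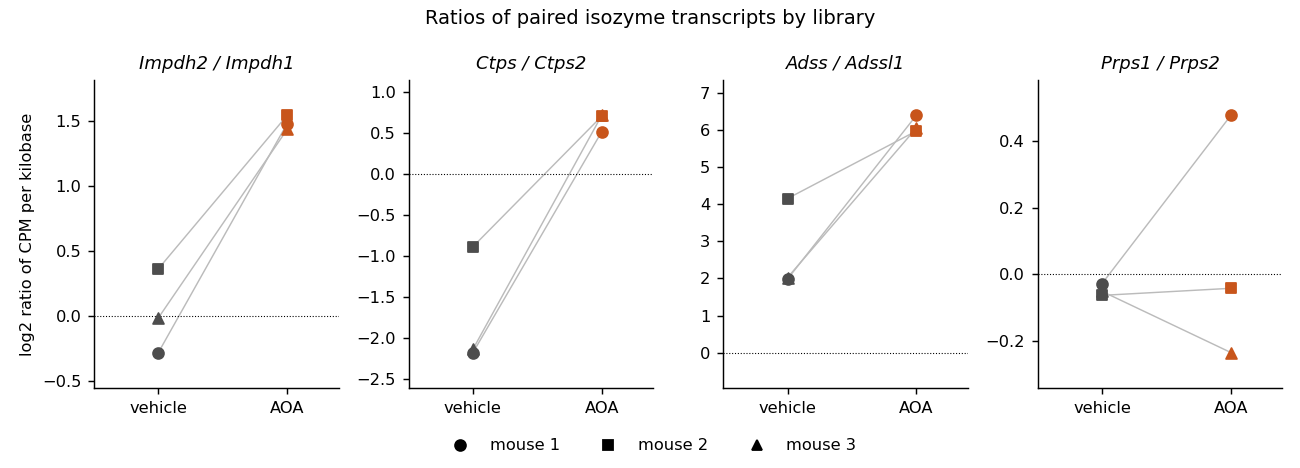
Log2 ratio of CPM per kilobase for 4 pairs of genes with the same reaction, by library, with a line joining the cultures of a mouse. The 3 AOA points lie above the 3 vehicle points for the first 3 pairs and overlap them for Prps1 over Prps2.

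The libraries that stood apart did so unequally for the 10 genes. Vehicle replicate 2 exceeded the mean of vehicle replicates 1 and 3 by 1.06 on the log2 scale for Ctps, 0.89 for Gart, 0.86 for Cad and 0.66 for Atic. The same difference was 0.16 for Adsl and -0.01 for Paics. AOA replicate 1 differed from the mean of AOA replicates 2 and 3 by -0.82 for Cad, while the other 9 genes lay between -0.20 for Gart and 0.32 for Paics.

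Cad has the longest transcript of the set, 7137 bases in the count table. Over all genes, the same difference of AOA replicate 1 had a median of 0.33 among the 2942 genes with the shortest transcripts and of -0.23 among the 2940 with the longest. For vehicle replicate 2 these medians were -0.01 and 0.01. When each library's trend with length was taken out and the mouse was made a replicate block, a fit chosen after the data had been seen, Cad had a log2 fold change of 1.80 and all 10 genes were called higher, with a median of 1.72. The part of length in the level of Cad in that library was not tested beyond this.

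Without vehicle replicate 2 the median log2 fold change of the 10 genes was 1.95, and without AOA replicate 1 it was 1.72. All 10 were called higher in both cases.

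**Figure D4:**
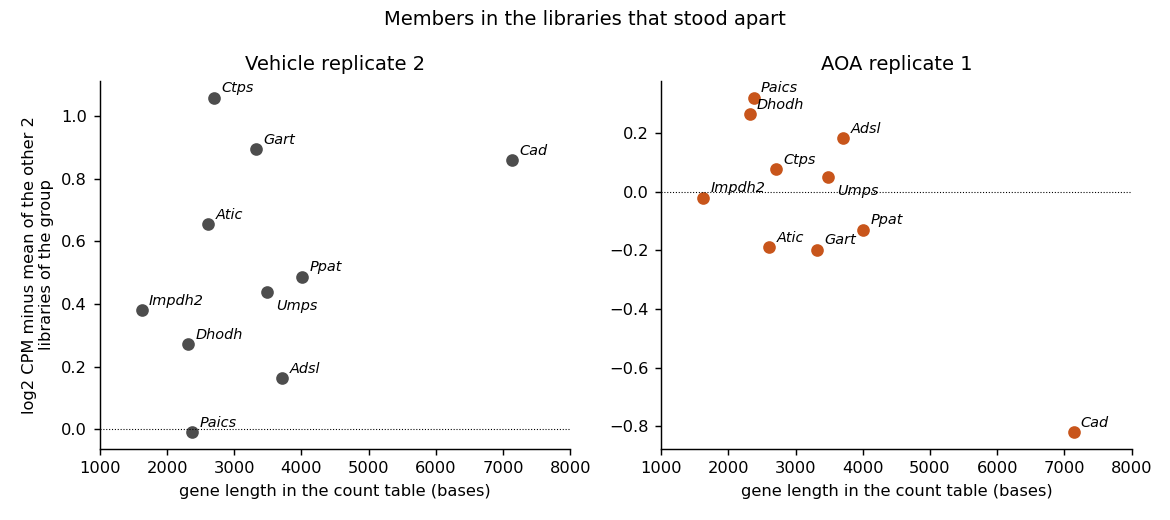
Difference in log2 CPM between vehicle replicate 2 (left) or AOA replicate 1 (right) and the mean of the other 2 libraries of the group, against transcript length in bases, for the 10 genes. The left panel runs from -0.01 for Paics to 1.06 for Ctps, and in the right panel Cad is low at -0.82.

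Genes that supply the precursors were listed beside the pathway. Of 7 genes of folate carbon supply 6 were called higher and 0 lower, beside 26.2% and 26.8% of all genes, and the median of their log2 fold changes was 1.35. Mthfd1, which makes formyl folate in the cytosol, was at 16.3, 51.4 and 19.0 CPM with vehicle and at 138, 172 and 163 CPM with AOA, with a log2 fold change of 2.44 (SE 0.39, adjusted p = 8.18e-04 by edgeR). Without vehicle replicate 2 it was 3.19. Shmt1 and Shmt2, the cytosolic and mitochondrial serine hydroxymethyltransferases, which use pyridoxal phosphate, rose by 2.13 and 1.49 on the log2 scale, and Shmt1 by 2.90 without vehicle replicate 2. Mthfd2 of the mitochondrial route rose by 0.94. Mthfd2l, named after its values were seen, had 0.15 and was not called. As for the members other than Paics, vehicle replicate 2 was the highest vehicle library for Mthfd1, Shmt1, Shmt2 and Mthfd2.

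In aspartate supply, Got1, the cytosolic aspartate transaminase and a pyridoxal phosphate enzyme, was at 62.0, 51.5 and 68.4 CPM with vehicle and at 54.7, 67.1 and 55.8 CPM with AOA, which overlapped widely. Its log2 fold change was -0.04 (SE 0.15, adjusted p = 0.86 by edgeR), with a sign that turned in 4 of the fits that left out a library. Got2, the mitochondrial form, was at 106, 117 and 118 CPM with vehicle and at 108, 163 and 146 CPM with AOA. Its log2 fold change of 0.29 (SE 0.17, adjusted p = 0.167 by edgeR) was not called, and was 0.45 without AOA replicate 1 (adjusted p = 0.015 by edgeR).

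Of the mitochondrial aspartate carriers, both named after their values were seen, Slc25a12 had a log2 fold change of 0.08 (adjusted p = 0.647 by edgeR). Slc25a13 was called higher at 0.84 (adjusted p = 0.0403 by edgeR). Its call was lost with upper-quartile factors and when any library other than vehicle replicate 2 was left out, and the gene did not pass a filter of at least 10 CPM in 3 libraries. Of the 4 genes of aspartate supply 1 was called higher and 0 lower, with a median of 0.18, and a share of 26.2% of all genes was called higher. The count of 1 was 0 without vehicle replicate 1, vehicle replicate 3, AOA replicate 2 or AOA replicate 3, and without AOA replicate 1 the gene called was Got2.

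Ribose phosphate, from which PRPP is made, comes from the pentose phosphate pathway. Of its 6 genes 4 were called higher and 0 lower, compared with 26.2% called higher among all genes tested, and the list's median was 0.57 on the log2 scale. Tkt, a transketolase, rose by 0.66, Rpe by 0.59 and G6pdx, the entry enzyme, by 0.59 on the log2 scale. The calls of Rpe and G6pdx were both lost without vehicle replicate 1 or vehicle replicate 3, and that of G6pdx also without AOA replicate 2 or AOA replicate 3 and with upper-quartile factors. The count was 1 without vehicle replicate 1 or without vehicle replicate 3, and 2 without AOA replicate 2, without AOA replicate 3 or with upper-quartile factors. None of the 6 reached a log2 fold change of 1. Of the PRPP synthetase-associated proteins, Prpsap2 rose by 1.24 and Prpsap1, named after its value was seen, had -0.02 and was not called.

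Salvage, which recycles bases and nucleosides past the de novo route, gave 3 genes called higher and 1 lower of 7, with a median log2 fold change of 0.22, and among all genes tested 26.2% were called higher and 26.8% lower. Hprt, which salvages hypoxanthine and guanine with PRPP, was at 112, 149 and 126 CPM with vehicle and at 432, 281 and 276 CPM with AOA, a log2 fold change of 1.35 (SE 0.20, adjusted p = 6.48e-04 by edgeR). Adk, adenosine kinase, and Uck2, a uridine and cytidine kinase, rose by 1.20 and 1.04. Uckl1, a relative of Uck2, fell with a log2 fold change of -1.29. Aprt, Uck1 and Uprt, named after their values were seen, had 0.10, 0.22 and -0.33 and were not called.

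Breakdown and interconversion genes numbered 13 of 19 listed in the count table, of which 6 were called higher and 2 lower, beside 26.2% and 26.8% of all genes, with a median of 0.37. Ada, adenosine deaminase, rose by 1.62, Nt5c3b, a nucleotidase, by 1.22 and Pnp, purine nucleoside phosphorylase, by 1.03. Xdh, which ends purine breakdown at urate, fell with a log2 fold change of -1.92, and its mean was 173 ± 50.7 CPM (SD, n = 3) with vehicle but 45.9 ± 16.7 CPM (SD, n = 3) with AOA. Upp1, uridine phosphorylase, named after its value was seen, was the other gene that fell, at -3.11 from at most 7.29 CPM.

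Kinases that raise nucleotides to the di- and triphosphate were called higher in 7 and lower in 0 of 12 cases, with a median log2 fold change of 0.89, and 4 were higher where a log2 fold change of at least 1 was required. Over all genes the shares were 26.2% higher, 26.8% lower and 12.1% higher with that requirement. Nme1 rose by 1.89, Ak6 by 1.44 and Nme2 by 1.01. Nme1 and Nme2 are close relatives, and reads from stretches where their sequences match do not map uniquely, so their separate values are less certain. Of 4 nucleoside transporter genes Slc29a1, the equilibrative carrier of the cell surface, rose by 1.54 and Slc28a2, a concentrative carrier, fell with a log2 fold change of -0.80. Slc29a2 and Slc29a3, named after their values were seen, had 0.89 and 0.26 and were not called. When the mouse was taken as a block, or vehicle replicate 2 was left out, 2 of the 4 were called higher.

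MYC is known to drive many genes of nucleotide synthesis, and its partners and opponents bind the same E-box. Of 10 genes of this network 5 were called higher, 4 lower and 1 was not called, with a median of 0.17, where 26.2% of all genes were higher and 26.8% lower. Myc was at 194, 192 and 151 CPM with vehicle and at 230, 278 and 228 CPM with AOA. Its log2 fold change of 0.45 (SE 0.15, adjusted p = 0.0331 by edgeR) was not called without vehicle replicate 1, vehicle replicate 3, AOA replicate 2 or AOA replicate 3. Mycn, the neuronal relative of MYC, was far less abundant and rose by 2.46, to 25.9 ± 0.728 CPM (SD, n = 3).

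The MXD proteins, which pair with MAX and repress, differed among themselves. Mxd1, Mxi1 and Mxd4 fell by 2.39, 2.04 and 1.89 on the log2 scale. Mxd3, known to be raised in dividing cells, rose by 2.77. Mlx rose by 0.53, a call lost without vehicle replicate 1, vehicle replicate 3 or AOA replicate 1. With upper-quartile factors neither Myc nor Mlx was called and 3 of the 10 were higher. The count called higher was also 3 without vehicle replicate 1 or without vehicle replicate 3. It was 2 where a log2 fold change of at least 1 was required. Max and Mnt, named after their values were seen, rose by 0.52 and fell with -0.76, and Mga had -0.12 and was not called. The part of these genes in the levels of the 10 members was not tested.

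Genes of cell division were higher with AOA too. All 12 proliferation markers were called higher with AOA, compared with 26.2% of all genes tested. Their median log2 fold change was 2.83, from 1.92 for Mki67, which lies below Ctps, to 3.34 for Rrm2. Rrm2, a subunit of ribonucleotide reductase, and Tyms, thymidylate synthase, at 3.26, turn the products of the pathway into precursors of DNA. The 12 summed to 962 to 1207 CPM with vehicle and to 6227 to 7411 CPM with AOA. The part of dividing cells in the levels of the 10 members was not tested.

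**Figure D5:**
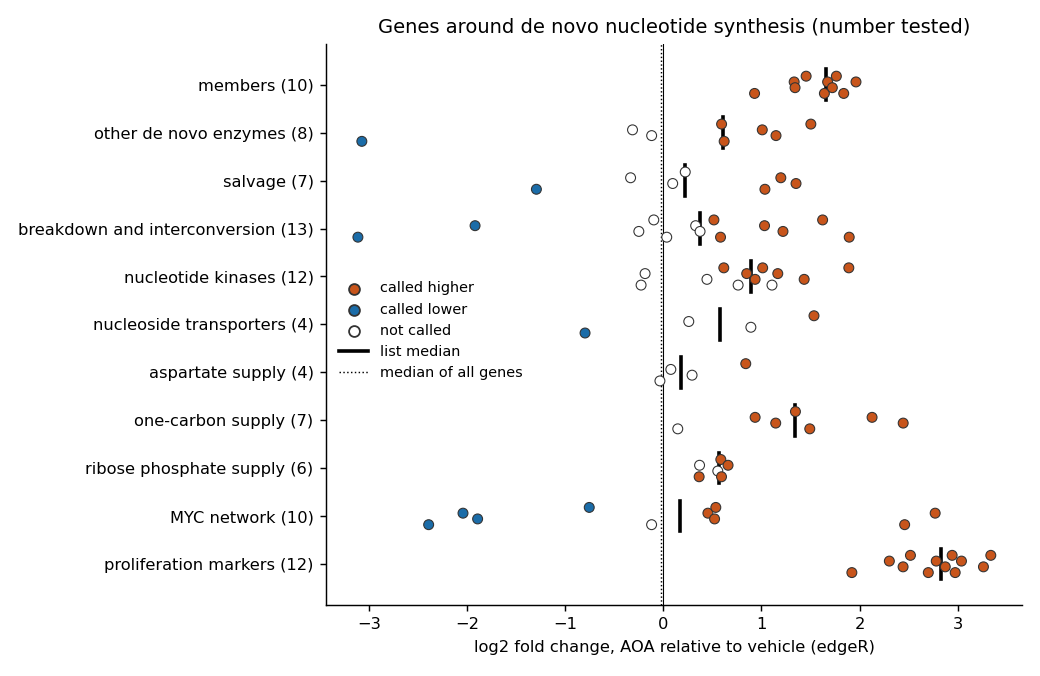
Log2 fold change (AOA relative to vehicle) of each tested gene in 11 lists around nucleotide synthesis, with the number tested in brackets, a bar at each list's median and a dotted line at the median of all genes. The 10 members lie to the right of 0 with a median of 1.66, between the one-carbon list at 1.35 and the proliferation markers at 2.83, while salvage, breakdown and the MYC network spread to both sides.

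Markers of cell types were counted beside these values. All 7 genes listed for CD8 T cells were present, and summed to 3438 to 4369 CPM with vehicle and 4369 to 5042 CPM with AOA. Only Cd8a and Cd8b1 encode CD8, while Cd3d, Cd3e, Cd3g, Cd2 and Cd5 are shared with other T cells. Cd8a and Cd8b1 were called higher and Cd2 and Cd5 lower, where 26.2% of all genes were higher and 26.8% lower. The calls of Cd8b1, Cd2 and Cd5 were lost without AOA replicate 3, and that of Cd2 also without vehicle replicate 3 or AOA replicate 2. The CD4 T cell list summed to 158 to 211 CPM with vehicle and to 33.0 to 54.3 CPM with AOA. Of its 4 genes 3 were called lower, compared with 26.8% of all genes tested. Cd4 itself fell with a log2 fold change of -3.08, Zbtb7b with -2.17 and Cd40lg with -2.58, while Foxp3 was not called at 0.36. The level of Foxp3 was 13.3 ± 2.49 CPM (SD, n = 3) in the vehicle libraries, compared with 17.1 ± 1.42 CPM (SD, n = 3) in the AOA libraries. The 3 of 5 myeloid markers found summed to 40.8 to 54.2 CPM with vehicle and to 0.874 to 3.33 CPM with AOA, nearly all of it Itgam, which activated T cells can also carry, while Lyz2 had at most 22 counts and Cd14 at most 16 in a library.

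The 4 of 5 B cell markers found summed to 12.6 to 16.6 CPM with vehicle and 22.6 to 30.7 CPM with AOA, mostly Cd79b, with Ms4a1 at 6 to 24 counts per library. The 3 of 4 NK cell markers found summed to 145 to 308 CPM with vehicle and 128 to 213 CPM with AOA, mostly Eomes, which CD8 T cells also express, with Ncr1 at 0 to 37 counts. Klrb1c fell, from 41.7, 111 and 20.1 CPM in the vehicle replicates to 6.99, 11.1 and 3.38 CPM in the AOA replicates, a log2 fold change of -3.02 (adjusted p = 0.0031 by edgeR), or -2.07 without vehicle replicate 2. Vehicle replicate 2 held the 37 counts of Ncr1 and the highest Klrb1c level. None of 6 erythroid markers was found in the count table. The part of other cells in the levels of the 10 genes was not tested.

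Within the set, the levels over the 6 libraries were most alike for Ppat, Umps and Atic. Their root mean square difference from the median profile of the 10, on the log2 scale after each gene's mean was removed, was 0.0546, 0.0815 and 0.110. Paics was farthest at 0.446, followed by Cad at 0.279 and Ctps at 0.266. Among 8752 other genes with a mean of at least 10 CPM, the profiles nearest to that median were those of Nup155 at 0.0558, Btbd10 at 0.0667, Stip1 at 0.0709, F2rl3 at 0.0792 and Tpi1 at 0.0828. Nup155 belongs to the nuclear pore, Stip1 is a chaperone adaptor and Tpi1 is a glycolytic enzyme. These are descriptions over 6 libraries that share their normalisation.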

How the data were processed

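The authors prepared stranded mRNA libraries, sequenced them as paired ends on a NextSeq 550, aligned them with STAR as set by default, and deposited the raw counts per gene of reads that mapped uniquely. The submitters' processing notes list bcl2fastq, STAR, featureCounts, DESeq2 and mm10. No source used here gives the annotation, the strand setting of the counting or a gene filter. No column lacked a sample.

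From the deposited counts, CPM and tests were computed in R 4.3.3 with edgeR 4.0.16 over all 6 libraries, with filterByExpr (minimum count 10), TMM, the robust quasi-likelihood test without covariates, and Benjamini-Hochberg adjustment over the 11759 genes tested. Log2 CPM used a prior count of 2. Library depth sets the counting error, and the replicate spread is larger. Ratios per length used the lengths of the count table and an exact permutation test, which did not use the pairing of cultures by mouse.

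The members and lists were chosen with earlier results of these data known. Named are all members, the 8 other de novo enzymes, up to 3 called genes per direction of each further list with the largest change and at least 10 CPM on average in the higher of the groups, a few fixed genes (Got1, Got2, Shmt1, Shmt2, Mthfd1, Mthfd2, Hprt, Uck2, Myc, Mki67), and the 5 nearest profiles. Others, the cell type markers Lyz2, Cd14, Ms4a1, Ncr1, Eomes, Cd40lg and Foxp3 among them, were named after their values were seen.

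Alternatives were the voom method of limma 3.58.1, DESeq2 1.42.0, size factors by median of ratios or upper quartile, total counts only, no filter, at least 10 CPM in 3 libraries, a log2 fold change of at least 1, the mouse as a replicate block, and each library left out. Removal of length trends with that block was chosen after the data had been seen. The pairing comes from the labels, which give the mouse donor. Deviations from group means of the same mouse correlated across genes at 0.0868, 0.189 and 0.194. Those of different mice correlated at -0.177 to 0.035. Deviations cancel within a group, so these values are not independent of each other. The steps were tested on simulated counts. Promoter windows and gene positions came from RefSeq GRCm38.p6, the assembly of mm10.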

Additional observations from a re-analysis of the deposited data

How the results depend on the processing

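All 10 members were called higher and 0 lower under DESeq2, limma, the other scalings and filters, the replicate block and each library left out, and 9 were called when a log2 fold change of at least 1 was required. Their median ranged from 1.51 (without vehicle replicate 3) to 1.95 (without vehicle replicate 2), and their largest adjusted p over these fits was 0.00881, for Cad. With the replicate block the median was 1.69, 10 members were called, and no call of the 18 de novo enzymes changed. With length trends also removed it was 1.72. Of the other de novo enzymes 3 instead of 5 were higher when a log2 fold change of at least 1 was required. Those called lower numbered 2 with upper-quartile factors, where Ctps2 joined Adssl1, and 0 where at least 10 CPM in 3 libraries was required, which Adssl1 did not pass, and 1 to 2 with a library left out. The log2 fold change of Got1 ranged from -0.13 to 0.09 with a library left out, and turned positive at 0.0039, 0.0872, 0.0211 and 0.0098. The scaling that moved the median of all genes most, by upper-quartile factors, moved it by -0.09. With 3 libraries per group, no outlier test of single values was run, and the exact permutation test of a ratio cannot give a p under 0.1.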
